A study of Rattus norvegicus with 4 samples.

Results

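The genes described here are targets of interferon and the machinery that cuts, transports and loads peptides for MHC class I, measured in rat small intestine. Members were chosen from a list of 56 gene names by the name printed for each probe on the array, with 2 older spellings joined to their genes (G1p2 to Isg15 and Indo to Ido1), which left 54 genes. A probe entered when the scanner software marked it well above background in 2 or more of the 4 rats. By that rule 40 member genes were measured, among 24310 genes or unnamed transcripts kept in all: 20 targets of type I interferon, 11 targets of interferon gamma and 9 genes of class I processing. The groups called targets also hold signalling genes, among them the receptor genes Ifnar1 and Ifngr1 and the factor Irf3, which are counted with them. All 50 member probes that were kept were well above background on all 4 arrays. For 1 name, Oas1b, the probe was not well above background on any array, and 15 names had no probe under that name. Where a gene had several kept probes, the one with the highest mean over the 4 arrays stands for it.

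Type I interferons signal through the receptor chain Ifnar1 and the factors Stat2 and Irf9, which switch on antiviral genes such as the Ifit, Mx and Oas families and Isg15. Interferon gamma, made by T cells and natural killer cells, signals through Ifngr1 and induces Irf1, the chemokines that draw Cxcr3-bearing lymphocytes, guanylate-binding proteins and Ido1. Both kinds of interferon raise the immunoproteasome and the peptide transporter that supply class I molecules, and in the intestine a low interferon tone is known to be kept up by the microbiota.

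The compost rats were male Wistar rats, an outbred stock, that drank tap water with compost extract at 1% (v/v). They were 3 weeks old at the start and drank it for 12 weeks. The control rats were male Wistar rats of the same age with plain tap water. To make the extract, aerobically fermented compost was diluted in water and kept hot under air. Each group had 2 rats with 1 one-colour array each, and the tissue is labelled small intestine, Peyer's patches excluded, with no segment named. The replicates are separate rats, so the spread between them includes differences between animals. All 4 arrays shared 1 slide and scan, with the compost rats at positions 3 and 4 and the control rats at positions 1 and 2, so position and group cannot be told apart.

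Between 66.5% and 71.0% of gene spots per array were well above background, and the median spot intensity was 113 and 80.8 in the compost rats and 88.4 and 87.2 in the control rats. Of 12 enterocyte markers 10 were measured, among them Vil1, Fabp1, Fabp2 and Apoa1, while Lct and Alpi were well above background in the control rats only. All 10 enterocyte markers had a lower mean in the compost rats, where 46.5% of all genes had a higher mean. Lct and Alpi entered through the control rats alone, so the filter favoured that direction for them. The median difference over the 10 markers was -0.47 in log2 units, and that of Cdx2, the smallest in size, was -0.015. The compost rats were the lower pair in 6 of the 10, where this held for 15.2% of all genes. Vil1, Fabp1, Apoa4 and Anpep were among these 6 and were well above background on all 4 arrays. None of the 10 passed in limma's test, which is described below. In bulk tissue, fewer cells of a type and less RNA per cell cannot be told apart.

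Each value below is a log2 intensity on a scale where 0 is the 75th percentile of that array, so that a negative value is a dimmer probe, and values of different genes are not set against each other. Differences are compost minus control in log2 units with the standard error (SE) of the limma model, and a difference of 1 is a 2-fold change. The comparison addressed whether the interferon and class I genes differ between compost and control rats. None of the 40 members passed in limma's test with Benjamini-Hochberg adjustment over all 28415 probes at 0.05 (smallest adjusted p = 0.901, for Ido1), and in that test the share of probes that passed was 0% higher and 0% lower. At an unadjusted p under 0.05, 2 members (Ido1 and Bst2) were higher and 0 lower, against 1.41% of all probes higher and 1.8% lower. The count of members that passed was also 0 under the other settings in which the test was run. With 2 rats against 2, an exact permutation test of a single value cannot go below 0.333 (two-sided), so the values are given as a description of these rats.

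Of the 40 members 24 had a higher mean in the compost rats and 16 a lower one, where 46.5% of all genes had a higher mean. The groups did not overlap in 10 members: the compost rats were the higher pair in 9, where this held for 12.7% of all genes, and the lower pair in 1 (Cxcl11), where it held for 15.2%. The 9 were Mx1, Bst2 and Ifitm3 among the type I targets, Ido1, Gbp2 and Gbp5 among the gamma targets, and Psmb8, Psme2 and Tap1 in class I processing. The groups of the other 30 members overlapped. The median difference was -0.080 for type I targets (9 higher and 11 lower), 0.38 for gamma targets (9 higher and 2 lower) and 0.060 for class I processing (6 higher and 3 lower), beside -0.018 for all genes. The gamma targets had the larger upward values, the type I targets were spread to either side of 0, and the class I genes were within 0.14 of 0 throughout.

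**Figure D1:**
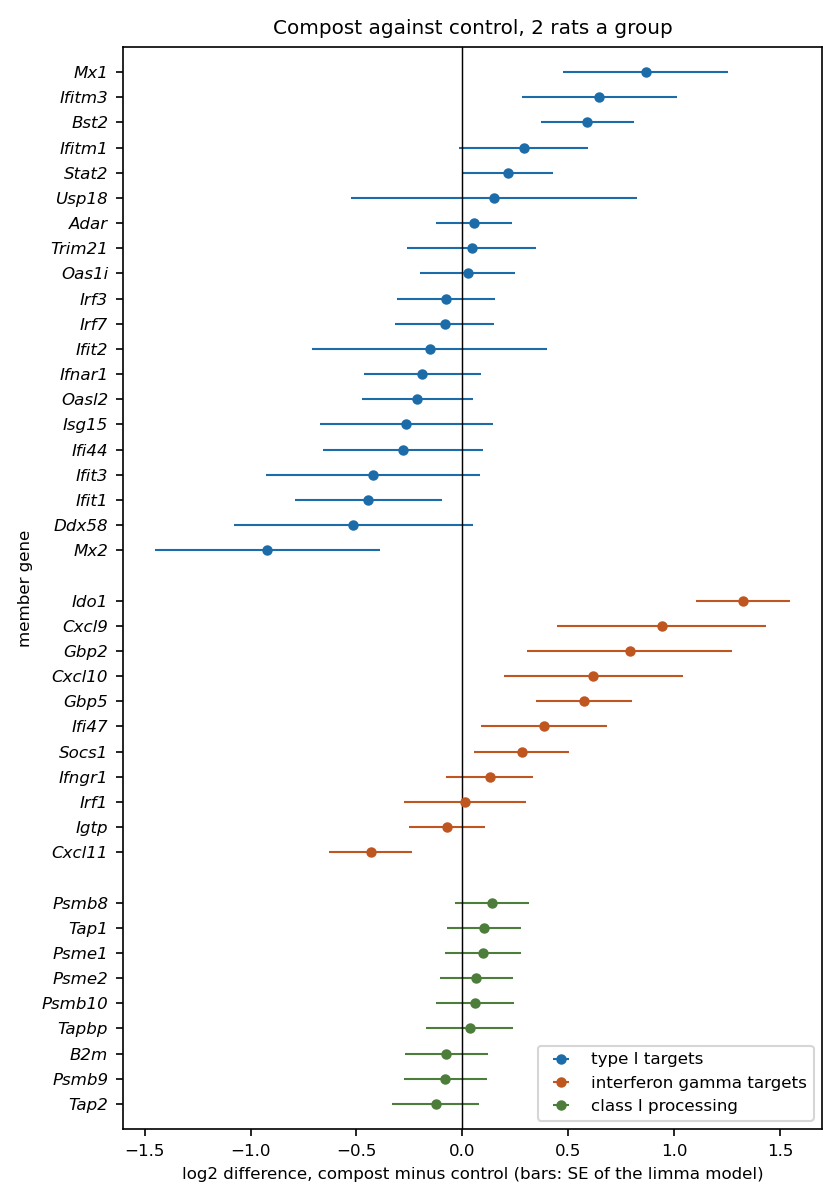
Log2 difference of each of the 40 members, compost minus control, with bars for the SE of the limma model (2 rats a group). The gamma targets run up to 1.33 for Ido1, the type I targets spread from -0.92 to 0.87 and the class I genes stay between -0.13 and 0.14.

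Among the targets of type I interferon, the effector genes of the antiviral state divided into those that were brightest in 1 control rat and those that were brightest in 1 compost rat. Mx2, a dynamin-like GTPase that blocks viral replication in the rat cytoplasm, lay at -3.03 and -2.38 in the compost rats and at -1.08 and -2.48 in the control rats (difference -0.92 ± 0.53 SE). The groups overlapped, since control rat 1 stood well above the other 3 rats while control rat 2 lay between the compost rats. Without control rat 1 the difference of Mx2 was -0.22. Isg15, the ubiquitin-like protein attached to other proteins during the antiviral response, had 4.05 and 4.12 in the compost rats and 4.91 and 3.79 in the control rats (-0.26 ± 0.41). Ifit3, which binds its partner Ifit1 in a complex that recognises viral RNA, had -3.97 and -4.15 in the compost rats and -2.92 and -4.35 in the control rats (-0.42 ± 0.50). In both genes the compost rats were close together and lay between the control rats. Without control rat 1 the difference turned to 0.30 for Isg15 and 0.29 for Ifit3, and with normexp background correction that of Ifit3 was -0.27.

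The same rat was the brightest for Ifit1, Ifi44, Oasl2, Oas1i, Trim21, Irf3, Irf7 and Usp18. Ifit1 was read from a probe for a predicted transcript, at 5.17 and 5.73 in the compost rats and 6.26 and 5.53 in the control rats (-0.44 ± 0.35), and a second kept probe gave -0.53. The difference of Ifit1 was -0.078 without control rat 1. Which gene copy these probes read was not settled, and the probe for the reference transcript, too dim to be kept, was brightest in compost rat 1. Irf7, the factor that amplifies production of type I interferon, had 3.72 and 3.84 in the compost rats and 4.09 and 3.63 in the control rats (-0.082 ± 0.23, and 0.15 without control rat 1). Ifi44 was measured by 3 probes that gave -0.25, -0.28 and -0.29. Usp18, which takes Isg15 off its targets and damps the type I receptor, was bright in rats of both groups, at -0.88 and -2.04 in the compost rats and -0.80 and -2.41 in the control rats (0.15 ± 0.67). The difference of Usp18 was -0.66 without control rat 2, -0.43 without compost rat 1 and 0.077 with normexp background correction, and its second probe gave 0.020.

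The compost rats were the higher pair in 3 of 20 type I targets, close to the share of 12.7% of all genes, so the count is not a result about these targets. Mx1, in the rat the nuclear counterpart of Mx2, was at -3.58 and -4.56 in the compost rats and -4.73 and -5.14 in the control rats (0.87 ± 0.39). The gap between the groups was narrow, since compost rat 2 lay close to control rat 1. The difference of Mx1 was 0.38 without compost rat 1 and 0.20 with normexp background correction, below that of Bst2 in both settings. Bst2, also called tetherin, which holds budding virions at the cell surface, had 3.59 and 3.19 in the compost rats and 2.76 and 2.84 in the control rats (0.59 ± 0.22, unadjusted p = 0.046 and adjusted p = 0.9999 by limma), and its second probe gave 0.75. The control rats were close together and below both compost rats, and Bst2 differed by 0.39 to 0.79 when 1 rat was left out. Ifitm3, a membrane protein that hinders virus entry, had 1.47 and 0.49 in the compost rats and 0.32 and 0.34 in the control rats (0.65 ± 0.36). That value rested largely on compost rat 1, and was 0.16 without it.

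Among the sensor and signalling genes the groups overlapped in the probe chosen for each gene. Ddx58, which encodes the viral RNA sensor RIG-I, had -0.59 and -2.23 in the compost rats and -0.86 and -0.92 in the control rats (-0.51 ± 0.56, and 0.30 without compost rat 2), and in its second probe compost rat 2 was again the lowest (-2.99 and -4.80 in the compost rats, -3.15 and -3.22 in the control rats). Stat2 had -0.56 and -0.88 in the compost rats and -0.84 and -1.03 in the control rats (0.21 ± 0.21, and 0.050 without compost rat 1). The 2 probes of the receptor gene Ifnar1 gave differences of opposite sign, -0.19 with overlap and 0.33 with the compost rats above, so no direction can be read for it. The other type I members were Ifitm1 (0.29), Ifit2 (-0.15) and the RNA-editing enzyme gene Adar (0.057), and their groups overlapped.

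**Figure D2:**
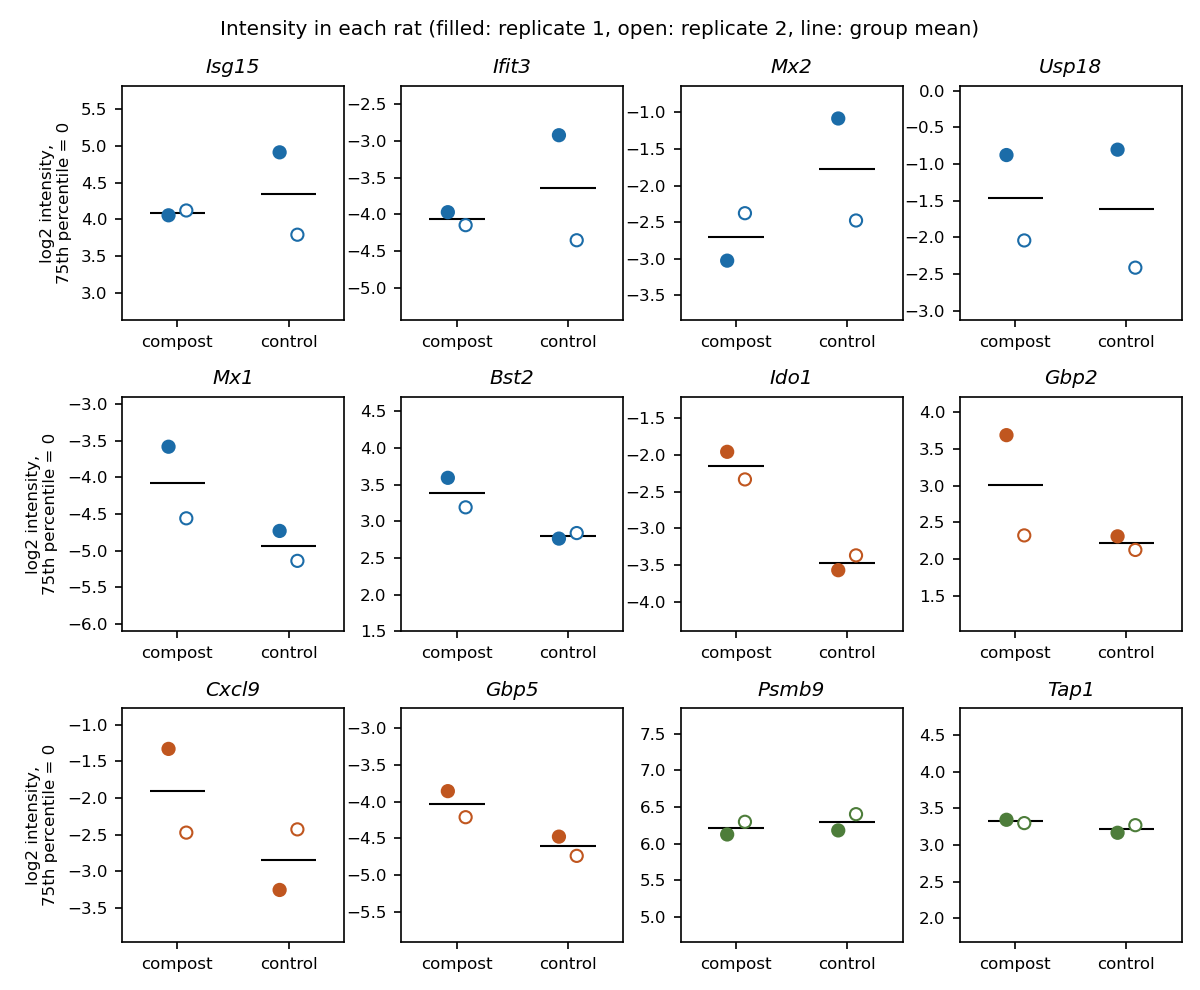
Log2 intensity in each rat for 12 members, on a scale where 0 is the array's 75th percentile; filled points are replicate 1, open points replicate 2 and lines group means, and every panel spans the same range of log2 units. Isg15, Ifit3 and Mx2 are highest in control replicate 1. The compost rats are the higher pair for Bst2, Ido1 and Gbp5, and by a narrow gap for Mx1, Gbp2 and Tap1. Psmb9 and Tap1 hardly vary.

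Type I interferon acts on its targets through a short element in their promoters, and 4 promoters are shown to set those letters beside the values. Promoter windows of 250 bases before the gene start were taken from RefSeq (GRCr8 build) and were found for 31 of the 40 measured members. The letters searched, GAAANNGAAA on either strand, are the core of the interferon-stimulated response element, where N is any base. They were present in 8 of 12 type I windows, against 3.41% of all 33469 windows in the table. The 160 bases before the start are printed below on the gene's strand with the matched letters in capitals, as the reverse complement where the match is on the other strand. Matches can overlap each other, as in Bst2.
Ifit3, chr1:241527166-241527325 (+ strand): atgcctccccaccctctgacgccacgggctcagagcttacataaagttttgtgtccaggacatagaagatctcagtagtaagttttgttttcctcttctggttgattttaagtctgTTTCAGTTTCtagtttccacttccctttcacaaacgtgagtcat
Oasl2, chr12:47383186-47383345 (- strand): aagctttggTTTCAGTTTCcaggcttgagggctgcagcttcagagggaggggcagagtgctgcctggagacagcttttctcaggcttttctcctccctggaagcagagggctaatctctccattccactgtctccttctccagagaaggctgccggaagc
Irf7, chr1:205800024-205800183 (- strand): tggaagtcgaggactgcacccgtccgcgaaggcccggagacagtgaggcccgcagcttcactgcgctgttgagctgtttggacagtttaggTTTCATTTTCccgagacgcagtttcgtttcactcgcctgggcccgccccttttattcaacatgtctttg
Bst2, chr16:18254968-18255127 (- strand): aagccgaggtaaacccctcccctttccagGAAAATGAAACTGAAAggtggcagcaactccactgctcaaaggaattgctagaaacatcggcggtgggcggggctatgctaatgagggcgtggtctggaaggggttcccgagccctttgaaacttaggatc
A match in this window is a description and not a site shown to be bound. Ifit3, Oasl2 and Irf7, brightest in control rat 1, and Bst2, brighter in both compost rats, all held the letters, while Mx1 and Stat2 had none in their windows.

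The targets of interferon gamma had higher means in the compost rats in 9 of 11 members. Ido1, the tryptophan-degrading enzyme induced by interferon gamma, had -1.96 and -2.33 in the compost rats and -3.57 and -3.37 in the control rats, which is 2.51-fold higher in compost (1.33 ± 0.22, unadjusted p = 0.0024 and adjusted p = 0.901 by limma). Both compost rats stood well above both control rats. Leaving out 1 rat gave 1.14 to 1.51 for Ido1, and normexp background correction gave 0.80. Gbp5, a guanylate-binding protein of cell-autonomous defence, had -3.86 and -4.21 in the compost rats and -4.48 and -4.74 in the control rats (0.57 ± 0.22), so its groups were also apart. With normexp background correction the difference of Gbp5 was 0.20.

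Gbp2, which coats the vacuoles of intracellular microbes, had 3.69 and 2.32 in the compost rats and 2.31 and 2.12 in the control rats (0.79 ± 0.48). Compost rat 1 alone was high, compost rat 2 lay only just above control rat 1, and the difference was 0.11 without compost rat 1. Cxcl9, a chemokine that draws activated T cells through Cxcr3, had -1.33 and -2.47 in the compost rats and -3.25 and -2.43 in the control rats (0.94 ± 0.49, but 0.37 without compost rat 1 and 0.62 with normexp background correction). Cxcl10, a second ligand of Cxcr3, had -0.047 and 0.43 in the compost rats and -0.97 and 0.11 in the control rats (0.62 ± 0.42, and 0.078 without control rat 1). For both chemokines control rat 1 was the lowest of the 4 rats, which is the rat that was highest for Isg15, Ifit3 and Mx2. The third ligand, Cxcl11, differed the other way, at -1.65 and -1.40 in the compost rats and -1.16 and -1.03 in the control rats (-0.43 ± 0.20), with both compost rats below both control rats.

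The remaining gamma members differed less. Ifi47, an immunity-related GTPase, had 2.52 and 1.82 in the compost rats and 1.90 and 1.68 in the control rats (0.38 ± 0.30, and 0.031 without compost rat 1). Igtp, a GTPase of the same family, had -1.49 and -1.32 in the compost rats and -1.36 and -1.31 in the control rats (-0.072 ± 0.18). Irf1, the first transcription factor in the gamma response, had 2.13 and 1.43 in the compost rats and 1.74 and 1.79 in the control rats (0.014 ± 0.29, and -0.34 without compost rat 1). Socs1, which shuts off the receptor's kinases, differed by 0.28 and the receptor gene Ifngr1 by 0.13. The median over the gamma targets was 0.11 without compost rat 1 and 0.28 to 0.45 without 1 of the other rats, and 0.20 with normexp background correction.

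Promoters of 4 gamma members are shown because they hold the same letters as the type I genes, although their values ran differently over the rats. The letters were present in 5 of 10 gamma windows. The letters TTCNNNGAA, the core of the gamma-activated sequence, were present in 5 of 10 gamma windows, 2 of 12 type I windows and 1 of 9 class I windows, against 7.67% of all windows.
Gbp2, chr2:234005567-234005726 (+ strand): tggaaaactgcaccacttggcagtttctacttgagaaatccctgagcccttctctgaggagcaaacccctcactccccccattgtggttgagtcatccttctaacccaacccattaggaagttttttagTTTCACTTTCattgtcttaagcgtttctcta
Gbp5, chr2:233910839-233910998 (+ strand): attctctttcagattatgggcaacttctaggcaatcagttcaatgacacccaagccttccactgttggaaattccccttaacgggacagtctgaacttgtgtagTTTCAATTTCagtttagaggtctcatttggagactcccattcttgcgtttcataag
Igtp, chr10:42874887-42875046 (+ strand): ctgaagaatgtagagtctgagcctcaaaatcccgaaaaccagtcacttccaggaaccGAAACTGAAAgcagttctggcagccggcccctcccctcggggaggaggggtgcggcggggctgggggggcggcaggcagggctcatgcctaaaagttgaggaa
Socs1, chr10:5389414-5389573 (+ strand): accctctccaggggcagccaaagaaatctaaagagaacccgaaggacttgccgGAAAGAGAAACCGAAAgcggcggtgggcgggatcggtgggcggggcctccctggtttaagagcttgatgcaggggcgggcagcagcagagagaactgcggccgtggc
Of the 3 chemokine genes, Cxcl10 alone held GAAANNGAAA and Cxcl11 alone held TTCNNNGAA in the window. Irf1 and Ifi47 held TTCNNNGAA and not GAAANNGAAA.

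Class I processing was nearly flat. All 9 members were measured, and their differences lay between -0.13 and 0.14, with SEs of 0.17 to 0.21. The median range over the 4 rats was 0.20 for the class I genes, against 0.91 for type I targets, 0.85 for gamma targets and 0.50 for all genes. These ranges are log2 differences between the highest and the lowest rat. Differences of the size of these SEs could not be seen with 2 rats a group.

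The catalytic subunits of the immunoproteasome, which replaces the standard proteasome in immune settings and cuts peptides for class I, were Psmb8, Psmb9 and Psmb10. Psmb8 had 4.85 and 4.87 in the compost rats and 4.78 and 4.67 in the control rats (0.14 ± 0.18), with the compost rats above. Psmb9 had 6.12 and 6.30 in the compost rats and 6.18 and 6.40 in the control rats (-0.080 ± 0.19), with overlap. Psme1, a chain of the activator that opens the proteasome, had 5.01 and 5.12 in the compost rats and 5.02 and 4.92 in the control rats (0.097 ± 0.18), and its partner Psme2 differed by 0.066 and Psmb10 by 0.060. Tap1, a chain of the transporter that carries peptides into the endoplasmic reticulum, had 3.34 and 3.30 in the compost rats and 3.17 and 3.27 in the control rats (0.10 ± 0.18). Tap2, the partner chain, had 4.24 and 4.57 in the compost rats and 4.56 and 4.51 in the control rats (-0.13 ± 0.20). The compost rats lay only just above the control rats for Tap1, with compost rat 2 at 3.30 and control rat 2 at 3.27, and overlapped them for Tap2. The gap was as narrow for Psme2, with compost rat 1 at 5.48 and control rat 1 at 5.46.

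Tapbp, tapasin, which holds class I molecules at the transporter, had 3.80 and 4.04 in the compost rats and 4.01 and 3.76 in the control rats (0.034 ± 0.21). B2m, the light chain of every class I molecule, had 8.18 and 8.46 in the compost rats and 8.44 and 8.36 in the control rats (-0.077 ± 0.20). The 4 probes of B2m gave -0.05 to -0.18, and in each of them compost rat 1 was the lowest. The median over the class I genes was -0.042 without compost rat 2, and signs turned for Tapbp, Psmb9, B2m and Tap2 without 1 rat or another, always within 0.10 of 0.

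Promoters of 4 class I members are shown because they carry the same letters beside values that barely moved. The letters GAAANNGAAA were present in 6 of 9 class I windows.
Tap1, chr20:4668544-4668703 (- strand): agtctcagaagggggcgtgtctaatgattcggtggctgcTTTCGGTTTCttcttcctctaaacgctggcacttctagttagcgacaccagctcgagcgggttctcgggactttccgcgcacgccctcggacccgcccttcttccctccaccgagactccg
Tapbp, chr20:4967878-4968037 (- strand): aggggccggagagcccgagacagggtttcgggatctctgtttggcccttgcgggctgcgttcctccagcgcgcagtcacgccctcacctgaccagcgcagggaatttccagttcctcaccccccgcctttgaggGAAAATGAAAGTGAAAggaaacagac
Psmb10, chr19:50743293-50743452 (- strand): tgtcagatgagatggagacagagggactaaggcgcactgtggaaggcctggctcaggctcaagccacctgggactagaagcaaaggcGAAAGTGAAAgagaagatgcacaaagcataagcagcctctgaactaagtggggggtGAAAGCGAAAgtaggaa
B2m, chr3:129549170-129549329 (+ strand): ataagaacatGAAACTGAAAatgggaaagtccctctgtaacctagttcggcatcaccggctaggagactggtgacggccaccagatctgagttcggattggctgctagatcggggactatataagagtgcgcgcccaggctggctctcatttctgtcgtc
Tap1 and Psmb9 start 457 bases apart on opposite strands, and the letters were found in the window of Tap1 but not in that of Psmb9. Each window covers 250 bases, so letters further from the start of Psmb9 were not searched for that gene.

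Among the type I targets the control rats stood apart from each other. Control rat 1 was the highest of the 4 rats in 11 of 20 type I targets, 0 of 11 gamma targets and 0 of 9 class I genes, where it was the highest in 22.3% and the lowest in 24.5% of all genes. Control rat 2 was the lowest in 10 of 20 type I targets, where it was the lowest in 14.4% and the highest in 20.2% of all genes. Control rat 1 exceeded control rat 2 in 18 of 20 type I targets, where it did so in 44.9% of all genes. The median of control rat 1 minus control rat 2 over the type I targets was 0.50. Between the group means the median difference was -0.080 and the median absolute difference 0.24. These measures are unlike, since means of 2 rats vary less than single rats. Compost rat 1 was the highest in 9 of 20 type I and 7 of 11 gamma targets, where it was the highest in 26% and the lowest in 37.7% of all genes. Compost rat 2 was the highest in 0 of 20 type I targets and in 7 of 9 class I genes, where it was the highest in 31.5% and the lowest in 23.4% of all genes. The type I median, compost minus control, was therefore 0.25 without control rat 1, -0.33 without control rat 2, -0.091 without compost rat 1 and 0.10 without compost rat 2, so its direction depended on which rat was left out.

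**Figure D3:**
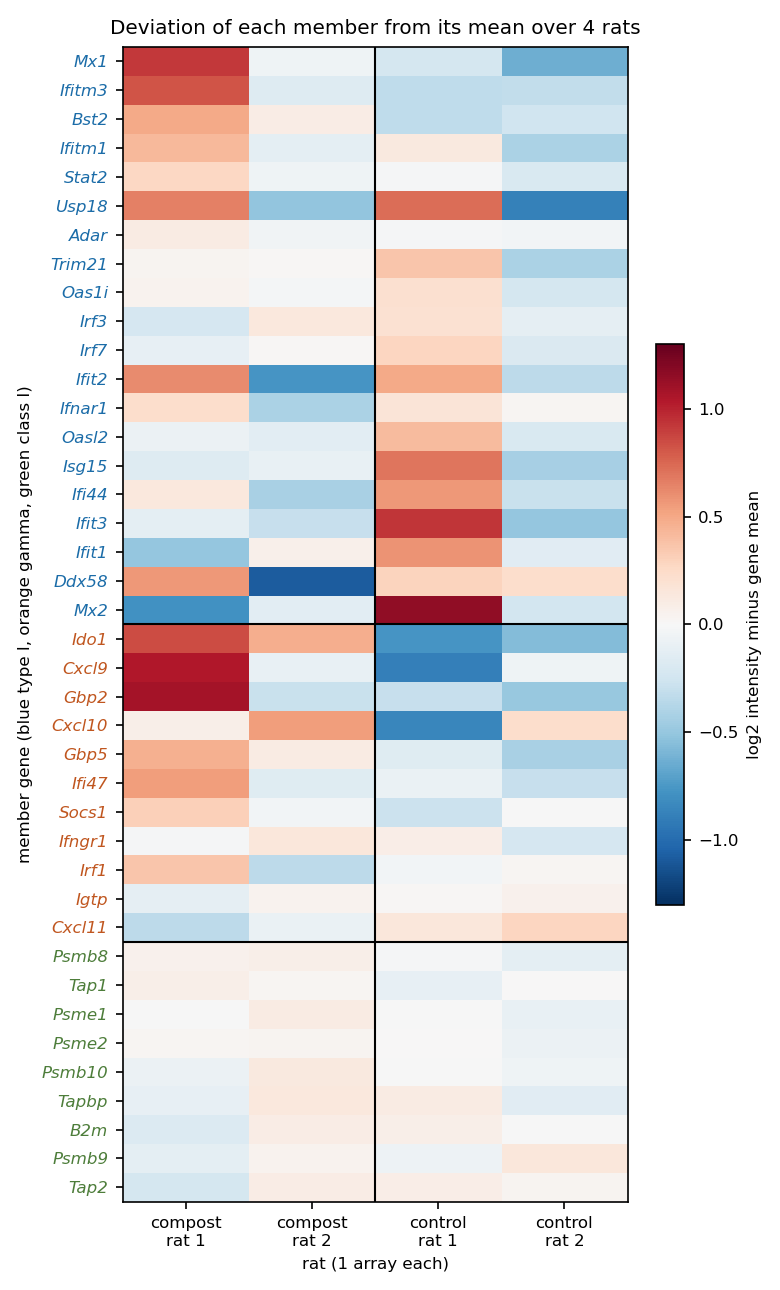
Deviation of each of the 40 members from its own mean over the 4 rats, in log2 units, with compost rats on the left and type I, gamma and class I members from top to bottom. Control rat 1 is red for Mx2, Ifit3 and Isg15, compost rat 1 is red for Cxcl9, Gbp2 and Ido1, and the class I rows are pale.

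Markers of immune cells also differed between rats. Control rat 1 exceeded control rat 2 in 9 of 10 measured T cell markers and in 10 of 13 cytotoxic and natural killer cell markers. It did so in 44.9% of all genes. The summed level of the T cell markers, on the linear scale in units of the array's 75th percentile, was 23.7 and 34.7 in the compost rats and 37.9 and 19.2 in the control rats, and that of the cytotoxic markers was 51.3 and 65.2 in the compost rats and 43.8 and 30.0 in the control rats. Gzma and Gzmb carried much of the cytotoxic sum, and Gzmb was at 4.21 and 4.98 in the compost rats and -3.84 and 3.47 in the control rats. The median deviation of the 13 cytotoxic markers from their means ran in another order, at 0.14 and 0.094 in the compost rats and 0.34 and -0.56 in the control rats. All these markers were well above background in all rats except Cd2, which was so in 1 of the 2 control rats. Macrophage and dendritic cell markers had a higher mean in compost in 8 of 9 genes, against 46.5% of all genes. Their summed levels were 92.7 and 56.8 in the compost rats and 58.2 and 41.2 in the control rats. Compost rat 1, the highest rat for Gbp2 and Cxcl9, thus had the highest summed macrophage level too. In 5 of 6 B and plasma cell markers the compost rats were the higher pair, against 12.7% of all genes, and 0 of the 6 passed limma's test. Ms4a1, 1 of these 5, was not well above background in the control rats. It entered through the compost rats alone, so the filter favoured that direction for it. Of 5 plasmacytoid dendritic cell markers, a cell type known for type I interferon, 3 were measured, with summed levels of 5.13 and 3.86 in the compost rats and 4.64 and 3.55 in the control rats. That sum was nearly all Tcf4 and Il3ra, while the dim Siglech had -3.79 and -4.89 in the compost rats and -5.27 and -5.23 in the control rats. The part of any of these cell types in the member values was not tested.

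**Figure D4:**
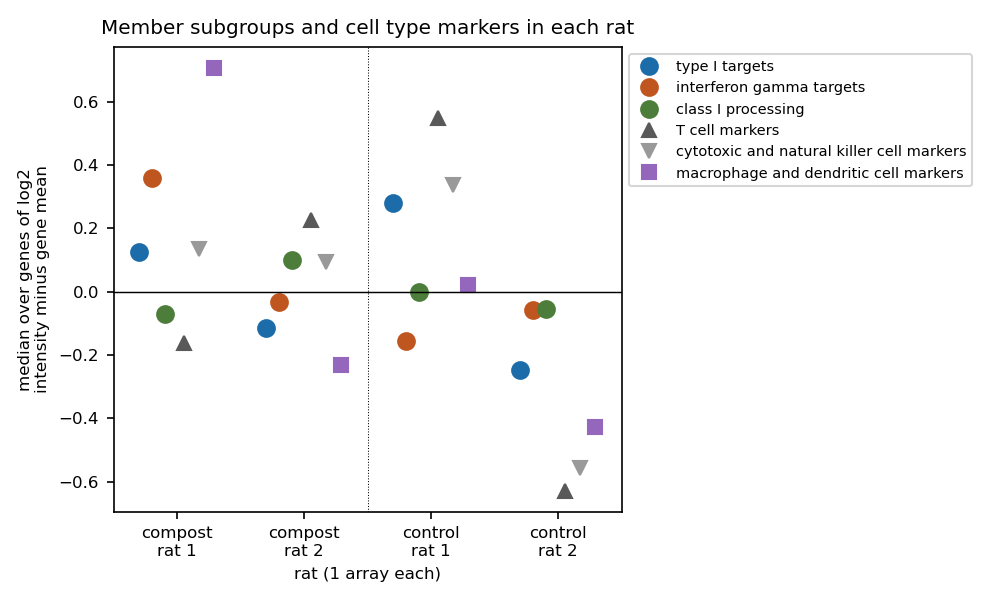
Median over genes of the log2 intensity minus the gene's mean over 4 rats, for the 3 member subgroups (circles) and 3 lists of cell type markers (triangles and squares), with compost rats on the left. Type I targets are highest in control rat 1 at 0.28 and lowest in control rat 2 at -0.25, gamma targets and macrophage markers are highest in compost rat 1 at 0.36 and 0.71, and class I genes stay between -0.072 and 0.10.

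A further 9 member genes, all type I targets, stood on the array under other names and were found through their accession or a synonym in RefSeq. They were Oas1a, Oasl, Rsad2, Irf9, Eif2ak2, Ifi27, Ifi44l, Ifih1 and Dhx58, and they were looked for after the values of the others had been seen. None passed (0 of 9 in limma's test, and 0 at an unadjusted p under 0.05), and 5 were higher and 4 lower by the brightest probe. Control rat 1 exceeded control rat 2 in all 9 and was the highest rat in 6. Among all genes it did so in 44.9% and was the highest in 22.3%. Eif2ak2, counted as higher at 0.096, had a second probe at -0.51, so its direction depended on the probe. Rsad2, or viperin, which makes a nucleotide that stops viral polymerases, had 0.38 and 1.19 in the compost rats and 2.37 and 0.40 in the control rats (-0.60 ± 0.72), and its second probe gave -0.98. Oas1a, which makes the oligoadenylates that activate RNase L, had 3.59 and 3.69 in the compost rats and 3.92 and 3.51 in the control rats (-0.077 ± 0.22). In both genes control rat 1 was the highest and the groups overlapped. The other 5 member genes, Oas1b among them, were not analysed here.

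Other genes of the pathway, from lists that did not use the member names, gave the same count of 0 passing in either direction. Among ligands, receptors and signalling genes 11 of 21 were measured, 5 higher and 6 lower. The ligand gene Ifng was kept, at -3.16 and -3.67 in the compost rats and -4.30 and -4.36 in the control rats (0.92 ± 0.24, unadjusted p = 0.015 and adjusted p = 0.9999 by limma), and its groups did not overlap. The type I interferon genes Ifna1, Ifna4 and Ifnb1 were not among those measured. Jak1, a receptor-bound kinase, differed by -0.32 ± 0.22. Of 44 other interferon targets 32 were measured, 20 higher and 12 lower, with a median of 0.055 and a span from -0.67 for Cmpk2 to 0.89 for Batf2. Control rat 1 exceeded control rat 2 in 25 of these 32, against 44.9% of all genes.

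Of 34 other class I genes 28 were measured, 20 higher and 8 lower, with a median of 0.11. The compost rats were the higher pair in 9 of them and the lower pair in 0, where this held for 12.7% and 15.2% of all genes. The largest differences were those of the heavy chain genes RT1-M3-1 (0.64 ± 0.26) and RT1-T24-1 (0.56 ± 0.36), both among the 9. Also among these 9 were Tapbpl, a relative of tapasin (0.44 ± 0.17), and the endoplasmic reticulum chaperone genes Pdia3 (0.27 ± 0.17) and Calr (0.20 ± 0.18), which help class I molecules fold. The heavy chains RT1-A2 and RT1-CE1 differed by -0.056 and -0.030, and since these genes are near copies of each other a probe may read more than one of them. The standard proteasome subunit genes Psmb5, Psmb6 and Psmb7, which the immunoproteasome subunits replace, differed by 0.11, 0.13 and 0.24.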

How the data were processed

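Cy3-labelled RNA of each rat was hybridised to one-colour Agilent arrays, per the labels' protocols. Per the file headers, the deposited intensity is Agilent Feature Extraction's (version 9.1.3.1) processed signal, with spatial and multiplicative detrending on, linear and with no step between arrays; raw intensity and flags accompany it. The authors' deposited value table holds the same intensity rounded: the largest deviation of any spot was 0.497%, and column medians were 102 and 73.9 for compost and 80.2 and 79.4 for control, so neither scale, centring nor direction is in doubt. Of 45018 spots per array, 1639 controls and 7 to 11 outlier spots were left out, which removed 31 of 41012 probes, while 2 to 5 saturated spots stayed in. Log2 intensity was averaged per probe, less the array's 75th percentile. The groups were compared with limma 3.58.1 under R 4.3.3 (lmFit, eBayes, two-sided, Benjamini-Hochberg over the 28415 probes that passed the background filter). The fit was tested on simulated data. The number of arrays limits the precision.

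Members, lists and tests were chosen with earlier results of these data known. Values in every rat were given for the best known members of each subgroup, for its 5 members with the smallest p and for its 4 with the largest difference between rats of a group. Gene names were updated through a RefSeq table (GRCr8), by accession for 10819 probes, by symbol for 5199 and by synonym for 3485; the other 21478 have the array's own name. Alternatives were other background corrections, scalings, filters, sources of values, variance models and probe rules, a replicate block, and each array left out.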

Additional observations from a re-analysis of the deposited data

Results flagged for a closer look

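Both results below come from probes left out of the comparisons because fewer than 2 arrays were well above background, and each was well above background in 1 compost rat and in no control rat. The probe for the reference transcript of Ifit1 had -0.33 and -7.60 in the compost rats and -7.41 and -6.72 in the control rats, so that compost rat 1 stood far above the other 3 rats while the 2 kept probes, which target a predicted Ifit1 transcript, had compost rat 1 as the lowest rat. A dim probe of Ifit2 had -5.58 and -7.34 in the compost rats and -6.69 and -7.79 in the control rats, and the kept Ifit2 probe was also highest in compost rat 1, at -1.29. Neither probe was tested for a difference, and the cause was not tested.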

How the results depend on the processing

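The counts of members that passed stayed at 0 in every setting in which the test was run. Over all probes 0 passed, 1 with normexp background correction and 0 to 2 without 1 array (2 without control rat 2). Members with both compost arrays above both control arrays numbered 9. They numbered 8 with quantile scaling, 12 with median centring and 12 to 22 without 1 array. Members with both below numbered 1, 2 with quantile scaling, and 3 to 12 without 1 array, since 3 arrays separate more readily. The shares of all genes, 12.7% above and 15.2% below, were computed for the main setting only. The counts without 1 array therefore cannot be read as a result about the members. Without 1 array the medians ran from -0.33 to 0.25 for type I targets, 0.11 to 0.45 for gamma targets, -0.042 to 0.085 for class I genes and 0.00073 to 0.15 for all members. Without 1 array, differences that changed sign ran from -0.83 to 0.30 for Isg15, -1.14 to 0.29 for Ifit3, -0.32 to 0.15 for Irf7, -1.33 to 0.30 for Ddx58, -0.66 to 0.95 for Usp18, -0.34 to 0.36 for Irf1, -0.16 to 0.012 for Igtp, -0.094 to 0.16 for Tapbp, -0.19 to 0.031 for Psmb9, -0.22 to 0.062 for B2m and -0.29 to 0.038 for Tap2. Of the differences that kept their sign, Mx2 ran from -1.62 to -0.22, Ifit1 from -0.81 to -0.078, Mx1 from 0.38 to 1.35, Stat2 from 0.050 to 0.38, Tap1 from 0.051 to 0.15, Psmb8 from 0.082 to 0.20 and Psme1 from 0.043 to 0.15. No sign of a named difference changed under the other settings. Among those settings the largest moves in log2 units were with normexp background correction. The difference went from 0.87 to 0.20 for Mx1, from 1.33 to 0.80 for Ido1 and from 0.57 to 0.20 for Gbp5. The replicate numbers name different rats and deviations of same-numbered rats were not correlated (r = -0.036 over 28415 probes, which are not independent); with a replicate block 0 probes and 0 members passed and the differences were the same. Adding the members under older names, chosen after seeing the data, left the type I median at -0.077. Signal over background and 2 rats a group limit what can be seen for dim probes.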
